A study of Mus musculus with 6 samples.

Results

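Igf1, its receptors and its binding proteins were followed in single cells of inguinal white adipose tissue (iWAT) of mice of different ages that were housed warm or cold. The group holds 9 of the 31053 genes counted, chosen by symbol, and each symbol matched exactly 1 row: Igf1, the receptors Igf1r and Igf2r, and the binding proteins Igfbp2, Igfbp3, Igfbp4, Igfbp5, Igfbp6 and Igfbp7. They came from the stromal vascular fraction, after immune cells carrying CD45 had been removed, of C57BL/6 males that were young (9 weeks) or aged (57 weeks). All mice were first held at 30 °C for 3 weeks. They then stayed at 30 °C (thermoneutrality, TN) or were moved to 6 °C for the last 3 days (3D cold) or for 14 days (14D cold). Each combination of age and temperature was 1 library, so a test of age compared 3 young with 3 aged libraries, and the libraries came from different mice. By the study's methods tissue of different mice was kept apart unless stated otherwise. Its section on cell sorting describes pooled mice for the sorted fibroblast classes. Whether mice were pooled for the single-cell libraries, and how many mice stand behind each, is not given in the sources used here.

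IGF1 is a secreted growth factor that activates the receptor tyrosine kinase IGF1R, and through IRS adaptors and PI3K the kinase AKT. IGF2R lacks that kinase activity and clears IGF2 from the cell surface. The binding proteins hold IGFs in blood and matrix, where proteases such as PAPP-A and HTRA1 release them. Liver supplies most circulating IGF1 under the control of growth hormone, while adipose tissue and other tissues also make it locally, and IGF1 is a potent signal for preadipocyte growth and differentiation in culture.

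The files held 68103 barcodes called as cells, of which 57326 were kept. Library totals ran from 52068837 to 88508349 unique molecular identifiers (UMIs, the count of distinct captured RNA molecules). Cells were sorted into classes by known markers, and 3 classes of fibroblasts were taken from the study: Dpp4+ fibroblasts (20998 cells), Icam1+ preadipocytes (14984) and Cd142+ fibroblasts (5877, CD142 being the product of F3). Endothelial cells (3777), SMC/pericytes (811, smooth muscle cells and pericytes) and immune cells left after the depletion (258) were also tested, and 7212 fibroblasts lay between classes. The cut between fibroblast classes is a limit on a score: 14.1% of the 49071 fibroblasts lay within 0.25 log2 units of it. The aged 14D cold library stood apart in depth, with a median of 2741.5 UMIs per kept cell against 6726 to 9904 in the others, and 18.0% of its kept cells held markers of more than 1 lineage against 2.07% to 3.79% elsewhere. Those mixed cells were left out of all classes. Clustered without the marker classes, 87.2% of the 5507 cells of 1 cluster that stayed unnamed (median 1541 UMIs) came from that library, as did 55.7% of 1 Dpp4+ cluster but 2.86% of the largest Dpp4+ cluster. Across libraries, 524 barcode sequences occurred more than once.

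Levels are given as CPM, the count of a gene scaled to the total UMIs of the same class and library (counts per 1e6 UMIs). The assay counts 3' ends, so a level was compared between classes and libraries for 1 gene at a time. In sums of this kind, fewer transcripts per cell and fewer expressing cells cannot be told apart.

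Igf1 (ENSMUSG00000020053; GRCm38 chromosome 10, 87858265 to 87937042, plus strand) was highest in Cd142+ fibroblasts, at 667 ± 351 CPM (SD, n = 6 libraries, both ages and all temperatures). Icam1+ preadipocytes followed at 219 ± 144 CPM and Dpp4+ fibroblasts at 91.5 ± 56.9 CPM, and the library ranges of neighbouring classes overlapped. Endothelial cells held 30.7 ± 4.3 CPM and SMC/pericytes 27.4 ± 9.1 CPM. With each cell thinned to 2000 UMIs, Igf1 was seen in 33.6% to 75.4% of Cd142+ cells, 7.55% to 47.1% of Icam1+ cells and 5.04% to 24.3% of Dpp4+ cells. The matching share in endothelial cells was 4.46% to 6.89%, and the lowest Dpp4+ share, in the aged 3D cold library, lay within that range. Before thinning, a Cd142+ cell held a median of 6212 UMIs and an endothelial cell 3308. Because Cd142+ cells are few, they carried at most 35.2% of the Igf1 UMIs of a library, close to the most that Icam1+ cells carried (34.2%), while Dpp4+ cells carried at most 21.9%.

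Low counts outside fibroblasts were set beside 10 fibroblast markers counted the same way. In endothelial cells those 10 markers reached 1.27% to 2.93% of their fibroblast level, which was taken as the background. Igfbp5 (1.81%) and Igfbp6 (1.67%) lay inside it in endothelial cells and are therefore not read as endothelial expression. Igf1 reached 14.4%, Igfbp4 9.59%, Igfbp3 58.3% and Igf1r 83.3% of the fibroblast level there, all above the marker range. In immune cells the markers reached 0.897% to 2.21%, while Igf1 reached 58.9%. The same 10 markers also served to sort the cells, so cells rich in them were left out of the other classes. Their range was limited by that sorting, in which the members were not used. A level above the range therefore does not tell expression from RNA carried over from fibroblasts. In SMC/pericytes the markers spread from 1.32% to 28.2%, too widely to serve as a background. Col6a1 and Serping1 stood highest there, and Igf1 (12.7%) lay above all the other markers. Igfbp6 (2.32%) lay below most of the markers. Neither gene is read as expression or as background in SMC/pericytes, and which of them applies was not tested.

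**Figure D1:**
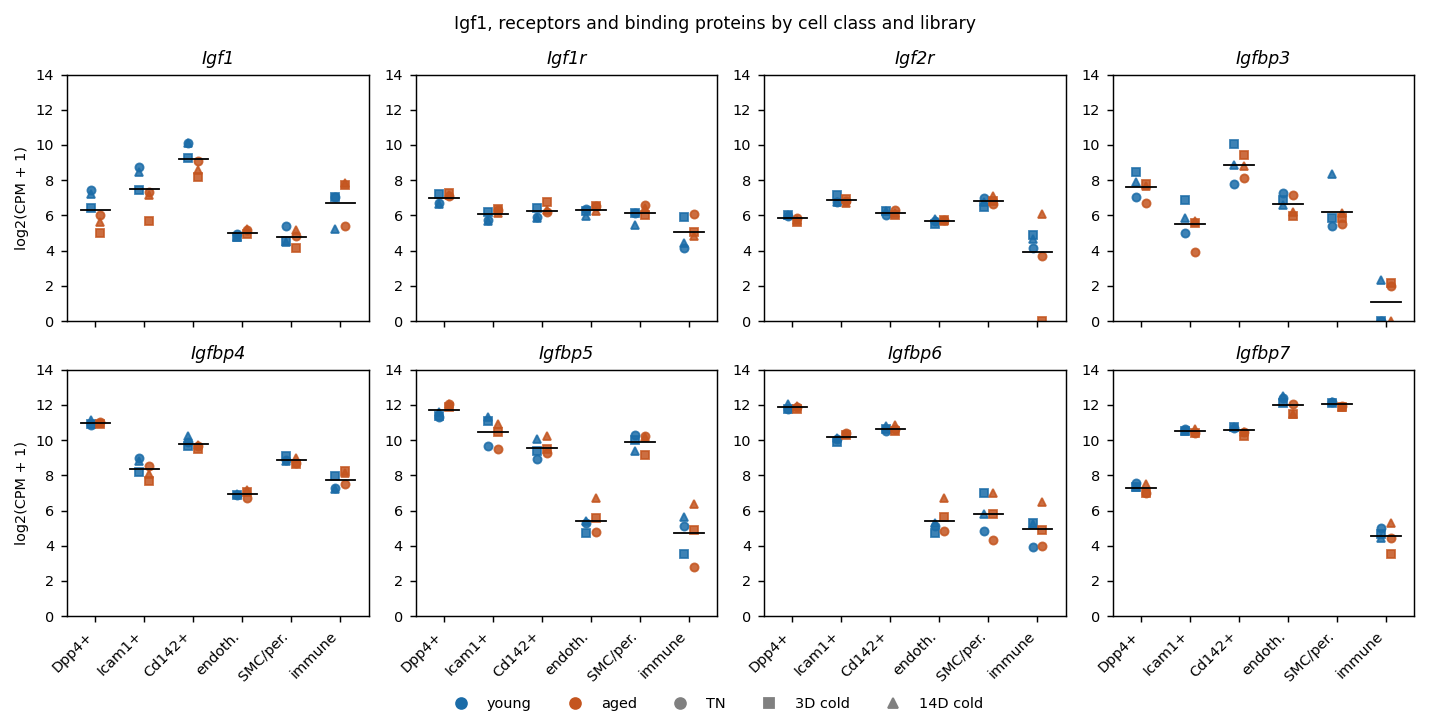
Level of 8 genes in the 6 tested cell classes, as log2(CPM + 1). Each point is 1 library, coloured by age and shaped by temperature group, and the bar is the mean of the 6 log values. Igf1 and Igfbp3 were highest in Cd142+ fibroblasts, Igfbp4, Igfbp5 and Igfbp6 in Dpp4+ fibroblasts, and Igfbp7 in endothelial cells and SMC/pericytes.

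The receptors were spread more evenly. Igf1r (ENSMUSG00000005533; chromosome 7, 67952827 to 68233668, plus strand) stood at 130 ± 23.3 CPM in Dpp4+ fibroblasts, 79.2 ± 11.1 in endothelial cells, 76.2 ± 18.0 in Cd142+ fibroblasts, 71.2 ± 18.1 in SMC/pericytes and 67.3 ± 13.2 in Icam1+ preadipocytes (SD, n = 6). Its Dpp4+ libraries all exceeded the endothelial ones, and below that the class ranges overlapped. Igf2r (ENSMUSG00000023830; chromosome 17, 12682406 to 12769664, minus strand) was highest in Icam1+ preadipocytes (116 ± 15.3 CPM) and SMC/pericytes (112 ± 17.6 CPM), whose ranges overlapped, and every library of both lay above those of Cd142+ fibroblasts (70.6 ± 6.2 CPM) and Dpp4+ fibroblasts (57.5 ± 6.1 CPM). The Igf2r locus also holds the antisense gene Airn, with 16771 UMIs against 34843 for Igf2r in kept cells, and whether counting used the strand is not given in the sources used here.

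The binding proteins divided the stroma between them. Igfbp5 (3432 ± 788 CPM), Igfbp6 (3727 ± 316 CPM) and Igfbp4 (2014 ± 125 CPM) were highest among the tested classes in Dpp4+ fibroblasts, and in all 3 genes every Dpp4+ library lay above every library of the next tested class. For Igfbp5 that class was Icam1+ preadipocytes (1589 ± 750 CPM), and for Igfbp4 and Igfbp6 it was Cd142+ fibroblasts (888 ± 171 and 1613 ± 157 CPM). Igfbp7 (ENSMUSG00000036256; chromosome 5, 77349240 to 77408041, minus strand), which binds IGFs weakly and is a known product of vessels, ran the other way: 4254 ± 1257 CPM in endothelial cells and 4180 ± 411 in SMC/pericytes, but 156 ± 24.7 in Dpp4+ fibroblasts. Igfbp3 (ENSMUSG00000020427; chromosome 11, 7206086 to 7213923, minus strand), the main IGF carrier of blood, was highest in Cd142+ fibroblasts (525 ± 309 CPM) and lowest of the fibroblast classes in Icam1+ preadipocytes (53.3 ± 35.6 CPM).

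Igfbp2 was close to absent. Its 76 UMIs in kept cells included 28 from Cd142+, 23 from Icam1+ and 14 from Dpp4+ cells, and none in endothelial, immune, Schwann or lymphatic endothelial cells. In Cd142+ fibroblasts a single cell of 732 in the young TN library held Igfbp2 after thinning, and 0 of 982 aged TN cells did, which allows a share of up to 0.305% of cells with a UMI (counting error only). No age or temperature statement is made for Igfbp2.

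With age, Igf1 fell in all 3 fibroblast classes. In Dpp4+ fibroblasts the young libraries stood at 172 (TN), 84.3 (3D cold) and 150 CPM (14D cold), and the aged libraries at 64.1, 30.4 and 48.6 CPM. In Icam1+ preadipocytes the young values were 436, 175 and 350.5 CPM and the aged values 162, 50.7 and 141 CPM. In Cd142+ fibroblasts they were 1092, 617 and 1094 CPM in young and 538, 284 and 375 CPM in aged libraries. Every aged library lay below every young one in each class.

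The fitted log2 fold change of Igf1, aged against young with temperature as a term, was −1.54 (SE 0.07) in Dpp4+ fibroblasts, a 2.91-fold lower level (adjusted p = 1.39e-07, edgeR quasi-likelihood test with Benjamini-Hochberg adjustment over all genes of the class, here and below). It was −1.50 (SE 0.09, 2.82-fold lower, adjusted p = 9.43e-05) for Icam1+ cells and −1.22 (SE 0.11, 2.34-fold lower, adjusted p = 9.88e-05) in Cd142+ fibroblasts. Within single temperatures the aged level was 0.324 to 0.373 times the young one in Dpp4+ cells, 0.290 to 0.401 times in Icam1+ cells and 0.342 to 0.493 times in Cd142+ cells, so the difference had 1 direction at TN and in the cold. Without the shallow aged 14D cold library the log2 fold changes were −1.45, −1.59 and −1.06, all still past the threshold. The Icam1+ call was lost only when temperature was dropped from the fit (adjusted p = 0.147). Over all kept cells of a library the difference was −1.26 (SE 0.07, adjusted p = 0.00127), and Igf1 was the only one of 9 genes past the threshold, where 10.0% of the 15755 genes tested were. DESeq2 on the same sums called 4 (Igf1, Igf1r, Igfbp3 and Igfbp4).

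The share of cells with Igf1 moved with its level. At 2000 UMIs per cell, 75.4%, 55.7% and 74.6% of young Cd142+ cells held an Igf1 UMI at TN, 3D cold and 14D cold, against 51.6%, 33.6% and 39.8% of aged ones. In endothelial cells the shares were 4.56% to 5.52% in young and 4.46% to 6.89% in aged libraries. The endothelial Igf1 level, 25.9 to 30.2 CPM in young and 29.8 to 36.8 CPM in aged libraries, did not pass the test of age (log2 fold change 0.32, SE 0.15, adjusted p = 0.40).

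The fall in Dpp4+ and Cd142+ fibroblasts was set beside the markers of the same cells. Marker sums of Icam1+ preadipocytes are not reported here. The summed level of the 10 fibroblast markers, mostly collagens and small proteoglycans, was also lower in aged cells: 35277 to 45312 CPM in young and 24818 to 29305 CPM in aged Dpp4+ fibroblasts, and 55828 to 70576 against 37671 to 48889 CPM in Cd142+ fibroblasts. No marker of the 10 was at 0 in either class. The 10 Cd142 markers, which mark the class richest in Igf1, summed to 450 to 604 CPM in young and 505 to 683 CPM in aged Dpp4+ fibroblasts, and to 4873 to 5512 against 4517 to 5497 CPM in Cd142+ fibroblasts, with overlapping ranges. The part of the general marker difference in the Igf1 result was not tested.

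Of the receptors, Igf1r rose with age in the 3 fibroblast classes, by 0.30 (SE 0.08, adjusted p = 0.0184) in Dpp4+, 0.43 (SE 0.07, adjusted p = 0.0104) in Icam1+ and 0.36 (SE 0.08, adjusted p = 0.0165) in Cd142+ cells on the log2 scale. In Icam1+ preadipocytes its levels were 53.0, 71.3 and 49.6 CPM in young and 77.4, 82.3 and 70.2 CPM in aged libraries at TN, 3D cold and 14D cold. The young 3D cold library reached into the aged range there and in the other fibroblast classes, so the ages overlapped. The Dpp4+ call was lost without the young TN (adjusted p = 0.0664), young 14D cold (0.0685) or aged TN library (0.0599), and the Cd142+ call without any 3D or 14D cold library (0.0593 to 0.0867) or with DESeq2 (0.168). With equal numbers of cells at 2000 UMIs the adjusted p was 0.0973, 0.156 and 0.212 in Dpp4+, Icam1+ and Cd142+ cells. Igf2r fell in Dpp4+ fibroblasts (−0.29, SE 0.06, adjusted p = 0.00914), from 61.5, 62.8 and 63.6 CPM in young to 56.2, 48.5 and 52.6 CPM in aged libraries, with no overlap. That call was lost without the young or the aged 3D cold library (adjusted p = 0.0923 and 0.0949).

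Among the binding proteins, Igfbp5, which binds to extracellular matrix as well as to IGFs, rose in aged Dpp4+ fibroblasts. Its young levels there were 2584, 2605 and 3044 CPM and its aged levels 4298, 3824 and 4236 CPM, with no overlap (log2 fold change 0.56, SE 0.08, 1.47-fold higher, adjusted p = 0.000676). This call held under each of the 15 alternatives run. In Icam1+ preadipocytes Igfbp5 fell instead, by 0.41 on the log2 scale (SE 0.09, adjusted p = 0.0303), from 810, 2154 and 2572 CPM to 708, 1385 and 1903 CPM, with overlapping ranges. That call was lost when the young or aged 3D cold library (adjusted p = 0.143 and 0.123) or the young or aged 14D cold library (0.0508 and 0.0666) was left out. In Cd142+ fibroblasts the difference was 0.20 (SE 0.09, adjusted p = 0.19).

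Igfbp3 fell in aged Dpp4+ fibroblasts by 0.45 (SE 0.08, adjusted p = 0.00222) and in aged Icam1+ preadipocytes by 0.87 (SE 0.19, adjusted p = 0.0276) on the log2 scale. The Icam1+ call was lost without the young 3D cold library (log2 fold change −0.63, adjusted p = 0.175), without the aged one (−0.63, adjusted p = 0.129) and with DESeq2 (adjusted p = 0.149). In Cd142+ fibroblasts, where Igfbp3 was highest, the difference was −0.14 (SE 0.14, adjusted p = 0.61). Igfbp4 fell in Icam1+ preadipocytes (−0.57, SE 0.07, adjusted p = 0.00303), from 505, 292 and 449 CPM in young to 367, 200 and 270 CPM in aged libraries, while in Dpp4+ fibroblasts, its richest fibroblast class, it differed by −0.04 (SE 0.08). Igfbp6, a carrier that prefers IGF2, rose in Icam1+ preadipocytes (0.31, SE 0.08, adjusted p = 0.0426), from 1074, 960 and 1127 CPM to 1342, 1239 and 1297 CPM. The aged Igfbp6 values were all above the young ones, yet the adjusted p missed the threshold when any 1 of the 6 libraries was left out (0.0530 to 0.219).

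Igfbp7 fell with age in endothelial cells, where its young levels were 5420, 4401 and 5796 CPM and its aged levels 4278, 2804 and 2825 CPM (log2 fold change −0.64, SE 0.10, 1.55-fold lower, adjusted p = 0.00938). All aged libraries lay below all young ones. The call was lost without the young 14D cold library (−0.46, adjusted p = 0.122) and with DESeq2 (adjusted p = 0.0987). The 7 adipocyte markers summed to 480 to 1289 CPM in young and 999 to 2202 CPM in aged endothelial cells, with none at 0, and their part in this result was not tested. Igfbp7 also fell in Cd142+ fibroblasts (−0.34, SE 0.10, adjusted p = 0.0469), from 1622, 1729 and 1717 CPM to 1428, 1193 and 1381 CPM. That call was lost without any 1 of the 3D cold or 14D cold libraries (adjusted p = 0.169 to 0.263). In SMC/pericytes all 3 aged libraries (3719 to 3895 CPM) lay below the young ones (4415 to 4635 CPM), but the difference did not pass the test (−0.19, SE 0.10, adjusted p = 0.55).

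Of the 8 genes with enough counts to be tested (Igfbp2 was not), 5 were past the age threshold among Dpp4+ cells, 6 among Icam1+ cells and 3 among Cd142+ cells. The share of all genes past it was 17.7% in Dpp4+, 10.8% in Icam1+ and 10.0% in Cd142+ cells. In endothelial cells 1 of 8 passed, where 1.01% of all genes did. In SMC/pericytes 0 of 8 passed (0.804% of all genes) in edgeR's quasi-likelihood test, with 2 at an unadjusted p under 0.05 and 0 called by DESeq2. In immune cells 0 of 5 passed (0.0451% of all genes) in edgeR's quasi-likelihood test, with 0 at an unadjusted p under 0.05 and 0 called by DESeq2. Of all genes tested, 703 of 6588 in SMC/pericytes and 265 of 4432 in immune cells had such an unadjusted p.

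**Figure D2:**
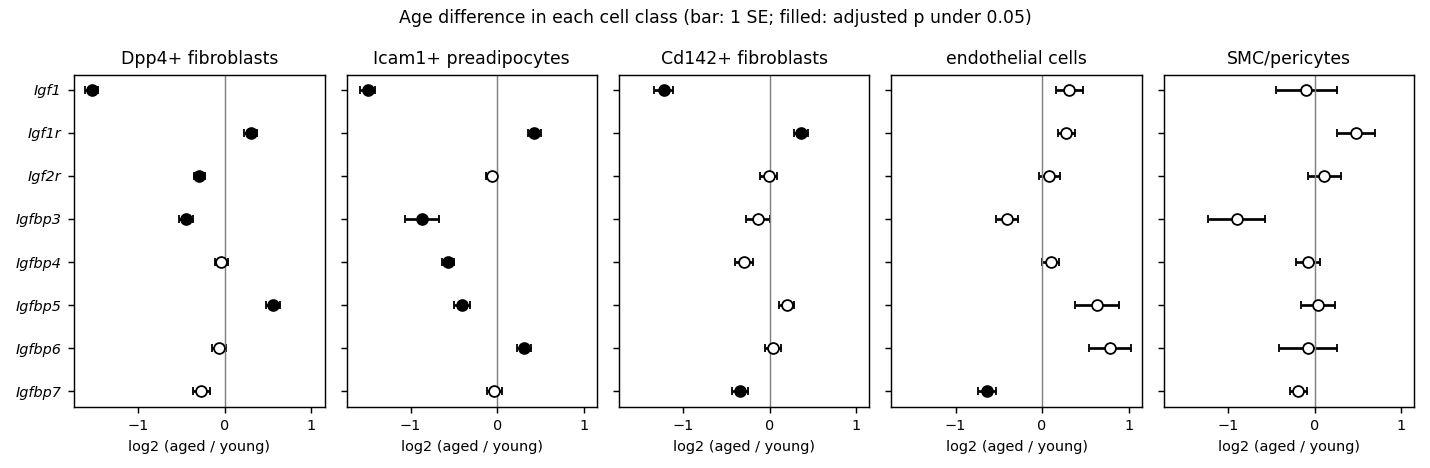
Age difference of 8 genes in 5 cell classes as log2 (aged / young) from the fit with temperature as a term. Bars are 1 SE and filled points passed the threshold on the adjusted p. Igf1 lies between −1.54 and −1.22 in the 3 fibroblast classes and near 0 in SMC/pericytes.

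Whether age differences were unlike between fibroblast classes was tested as an age by class term over 12 sums with library as a block. None of the 8 genes passed in the edgeR quasi-likelihood test of any of the 3 pairs, where 1.69% (Dpp4+ and Icam1+), 1.33% (Dpp4+ and Cd142+) and 0.854% (Icam1+ and Cd142+) of all genes did. At an unadjusted p under 0.05 there were 3, 3 and 4 of 8, and no other tool was run. The share of all genes at that unadjusted p is not reported here. The fit had no class by temperature term, so a temperature response that differed between classes counted as error in it. For Igfbp5, whose called directions were opposite in Dpp4+ and Icam1+ cells, the difference was −0.95 (SE 0.44, adjusted p = 0.37). Its temperature coefficients at 3D and 14D cold were −0.10 and 0.12 in Dpp4+ but 1.21 and 1.55 in Icam1+ cells. A fit with that term was not run. For Igf1 the difference between Dpp4+ and Icam1+ cells was 0.06 (SE 0.16, adjusted p = 0.92), and that between Dpp4+ and Cd142+ cells 0.32 (SE 0.09, adjusted p = 0.14). For Igfbp6 between Dpp4+ and Icam1+ cells it was 0.39 (SE 0.11, adjusted p = 0.12). For Igfbp3 between Icam1+ and Cd142+ cells it was 0.70 (SE 0.21, adjusted p = 0.19), and it passed without the aged 14D cold library (1.01, SE 0.14, adjusted p = 0.0102) and with Leiden clusters in place of the marker classes (1.05, SE 0.22, adjusted p = 0.0213).

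The temperature calls in the fibroblast classes were of Igf1, Igf1r, Igfbp3, Igfbp4 and Igfbp5. Counts by class are given below beside the share of all genes. Igf1 was lowest after 3 days of cold in every fibroblast class at both ages and higher again at day 14. In young Cd142+ fibroblasts it went from 1092 CPM at TN to 617 CPM at 3D cold and 1094 CPM at 14D cold. In aged Cd142+ fibroblasts it went from 538 to 284 and 375 CPM. The 3D cold level was 0.491 (young) and 0.475 (aged) times the TN level in Dpp4+ fibroblasts, 0.401 and 0.314 times in Icam1+ preadipocytes, and 0.564 and 0.527 times in Cd142+ fibroblasts. The test over the 3 temperature groups with age as a term gave log2 fold changes at 3D and 14D cold against TN of −1.07 and −0.27 in Dpp4+ (adjusted p = 0.000245), −1.47 and −0.25 in Icam1+ (adjusted p = 0.00284) and −0.87 and −0.23 in Cd142+ cells (adjusted p = 0.0177). These 3 calls held under 14 of 15 alternatives, the exception being the fit with no age term. Over all kept cells the Igf1 call (adjusted p = 0.0492, with 0.0635% of all genes past the threshold) was lost without any 1 of the 3D or 14D cold libraries (adjusted p = 0.122 to 0.346).

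Igfbp3 rose with cold in the 3 fibroblast classes. In Cd142+ fibroblasts the young libraries went from 218 CPM at TN to 1063 at 3D cold and 471 at 14D cold, and the aged from 276 to 678 and 444 CPM. In Dpp4+ fibroblasts the young values were 129, 352 and 238 CPM and the aged values 104, 218 and 203 CPM. In Icam1+ preadipocytes they were 31.4, 119 and 57.3 CPM and 14.1, 47.0 and 51.4 CPM. All 4 cold libraries exceeded both TN libraries in each of these classes. The log2 fold changes at 3D and 14D cold were 1.25 and 0.94 in Dpp4+ (adjusted p = 0.000209), 1.85 and 1.36 in Icam1+ (adjusted p = 0.0174) and 1.80 and 0.90 in Cd142+ cells (adjusted p = 0.00226). The Icam1+ call was lost without the young 3D cold library (1.49 at 3D cold, adjusted p = 0.0602).

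Endothelial cells differed in sign for Igfbp3, with log2 fold changes of −0.73 and −0.83 (adjusted p = 0.0176). Their levels were 154, 117 and 93.8 CPM in young and 140, 62.1 and 71.7 CPM in aged libraries. That call was lost without the aged TN library (14D cold −0.58, adjusted p = 0.371), with DESeq2 (adjusted p = 0.0730) with equal numbers of cells at 2000 UMIs (14D cold −0.26, adjusted p = 0.752), with Leiden clusters in place of the marker classes (adjusted p = 0.121) and with mixed cells kept (0.306). The difference between endothelial cells and fibroblasts was not tested. In SMC/pericytes the Igfbp3 call (adjusted p = 0.0209) rested on the young 14D cold library, at 326 CPM against 40.5 to 68.2 CPM in the other 5 libraries. Without it the log2 fold change at 14D cold was 0.60 (adjusted p = 0.701). It was also lost without the young TN (adjusted p = 0.301) or aged TN library (0.0593), with Leiden clusters (0.267) and with mixed cells kept (0.206), and DESeq2 gave it no adjusted p. The share of SMC/pericytes with Igfbp3 at 2000 UMIs, 13.6% in the young 14D cold library, was not above the 14.2% of the young 3D cold library.

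Igfbp5 rose with cold in Icam1+ preadipocytes, from 810 CPM at TN to 2154 and 2572 CPM in young and from 708 to 1385 and 1903 CPM in aged libraries, with all 4 cold libraries above both TN libraries (log2 fold changes 1.21 and 1.55, adjusted p = 0.00345). In Cd142+ fibroblasts it rose mainly at 14D cold (0.35 and 1.08, adjusted p = 0.00193). In Dpp4+ fibroblasts, which held the most Igfbp5, the coefficients were −0.10 and 0.12 (adjusted p = 0.32). Igfbp4 fell at 3D cold in Icam1+ preadipocytes (−0.81 and −0.30, adjusted p = 0.0106), a call lost without the young 3D cold library (−0.75, adjusted p = 0.120). Igf1r rose at 3D cold in Cd142+ fibroblasts (0.53 and 0.06, adjusted p = 0.0260), which was lost without the aged 3D cold library (0.51, adjusted p = 0.0947), with DESeq2 (0.141) and with equal numbers of cells (0.42, adjusted p = 0.383).

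In all, the temperature test was passed by 2 of 8 genes for Dpp4+ cells (7.61% of all genes), 4 for Icam1+ cells (3.16%) and 4 for Cd142+ cells (1.84%). Outside fibroblasts it was passed by 1 gene among endothelial cells (1.36%) and by 1 among SMC/pericytes (0.683%). In immune cells 0 of 5 passed in the edgeR quasi-likelihood test (0.0903% of all genes), with 1 at an unadjusted p under 0.05 and 0 called by DESeq2. Of all 4432 genes tested there, 226 had such an unadjusted p. Because the age and temperature tests use the same 6 libraries, their results are not independent of each other.

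**Figure D3:**
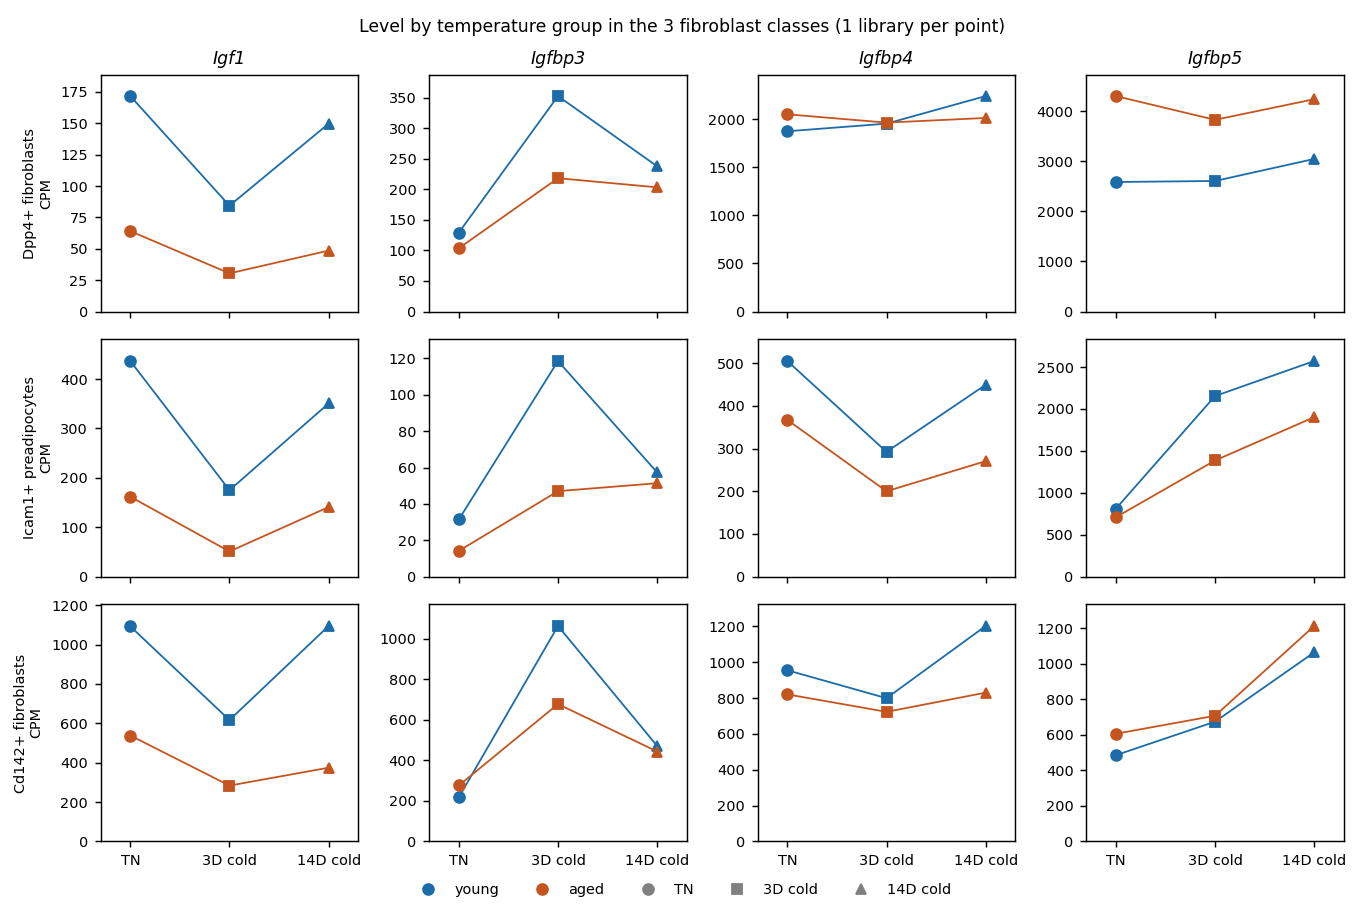
Levels in CPM of Igf1, Igfbp3, Igfbp4 and Igfbp5 at TN, 3D cold and 14D cold in the 3 fibroblast classes. Each point is 1 library, blue for young and orange for aged, joined by lines within an age. Igf1 is lowest at 3D cold at both ages in all 3 classes, and Igfbp3 is above its TN level in all cold libraries.

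The promoters of Igfbp3 and Igfbp4 are shown because these genes lie on 1 chromosome, both moved in Icam1+ preadipocytes, and moved in opposite directions with cold. The sequences are the 250 bases before the RefSeq start of each gene, read 5′ to 3′ on the strand of the gene (GRCm38.p6), with the matches of any motif searched in capitals. Igfbp3 lies at chr11:7213924-7214173 on the minus strand and Igfbp4 at chr11:99040994-99041243 on the plus strand, and neither stretch overlaps an exon of its own gene in GENCODE.
Igfbp3: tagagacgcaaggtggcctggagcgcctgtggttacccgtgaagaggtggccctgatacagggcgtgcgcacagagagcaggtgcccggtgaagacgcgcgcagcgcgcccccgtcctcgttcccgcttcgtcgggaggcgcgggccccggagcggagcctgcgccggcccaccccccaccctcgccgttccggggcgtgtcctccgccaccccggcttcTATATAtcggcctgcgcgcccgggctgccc
Igfbp4: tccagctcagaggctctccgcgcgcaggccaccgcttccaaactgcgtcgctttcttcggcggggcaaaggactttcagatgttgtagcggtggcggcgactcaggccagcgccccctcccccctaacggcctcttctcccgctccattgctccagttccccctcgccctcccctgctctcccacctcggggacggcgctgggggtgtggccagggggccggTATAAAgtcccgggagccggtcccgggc

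The capitals in Igfbp3 are TATATA, 30 bases before the start, and those in Igfbp4 are TATAAA, 28 bases before it. On both strands, TATATA was in 5.25% and TATAAA in 12.4% of the 32851 promoters of the table, counted in the same 250 bases. All 9 genes had a promoter entry. TTCNNNGAA, the letters of a STAT5 site, which growth hormone signalling uses, was in none of the 9 and in 7.02% of all promoters. GTAAACA, the letters of a FOXO site, was in none of the 9 and in 3.17% of all. CCAAT was in those of Igf1 and Igfbp6 (33.8% of all), and GGGCGG in those of Igf1r, Igf2r, Igfbp2 and Igfbp7 (32.7% of all). These matches are descriptions of letters in a window. The windows of Igf1 and Igfbp5 lie inside a GENCODE gene and overlap an exon. For Igf1 the window (87860861 to 87861110) lies downstream of the GENCODE start of the gene (87858265). The bases before that GENCODE start were not searched.

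The rest of the pathway was read from 45 other genes, in lists of ligands and receptors, other binding proteins, proteases and their inhibitors, adaptors, PI3K and AKT, and the growth hormone axis. In Dpp4+ fibroblasts 39 of them could be tested and 12 passed the age threshold (4 higher, 8 lower). For Icam1+ cells it was 5 of 37, with 3 up and 2 down. For Cd142+ cells it was 9 of 38, with 2 up and 7 down. These are 30.8%, 13.5% and 23.7% of those tested, beside the 17.7%, 10.8% and 10.0% of all genes given above. The median log2 fold change of the genes tested was −0.08, −0.09 and −0.01 in the 3 classes, and that of all genes of a class between −0.00418 and 0.00203. In endothelial cells 1 of 33 passed (3.03%, beside 1.01% of all genes). In SMC/pericytes 0 of 21 and in immune cells 0 of 15 passed in the edgeR quasi-likelihood test, with 5 and 2 at an unadjusted p under 0.05 and 0 called by DESeq2 in both. The matching unadjusted counts over all genes were 703 of 6588 and 265 of 4432.

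Among the adaptors that stand between the receptor and PI3K, Irs2 rose with age in Dpp4+ (0.35, SE 0.06), Icam1+ (0.34, SE 0.06) and Cd142+ cells (0.51, SE 0.10; adjusted p = 0.00186 to 0.0117), at levels of 130 to 345 CPM. Grb10, an adaptor that restrains insulin and IGF1 receptor signalling, fell in the same classes (−0.51, −0.35 and −0.39, adjusted p = 0.00202 to 0.0148), and in each the aged libraries all lay below the young ones. Irs1 fell in Dpp4+ (−0.32, SE 0.07) and Cd142+ cells (−0.48, SE 0.10). Leaving out a library of 3D or 14D cold ended 1 or more of these calls: Irs2 in Icam1+ (without a 3D cold library, adjusted p up to 0.133) and in Cd142+ cells (without aged 14D cold, 0.0568), Grb10 in Icam1+ (without a 3D cold library, up to 0.140) and in Cd142+ cells (without a 14D cold library, up to 0.0928), and Irs1 in Dpp4+ and Cd142+ cells (without a 3D cold library, up to 0.123 and 0.0814). Irs2 and Grb10 in Dpp4+ fibroblasts held with each library left out. Over all 15 alternatives the Irs1 call held in 10 in Dpp4+ and in 10 in Cd142+ cells.

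In the PI3K and AKT list, Pik3r1, the regulatory p85 subunit, fell in Dpp4+ (−0.50, SE 0.06, adjusted p = 0.000126) and Cd142+ cells (−0.52, SE 0.10, adjusted p = 0.00696). Foxo1, a transcription factor that AKT keeps out of the nucleus, fell in Dpp4+ cells (−0.39, SE 0.07), and Rictor, a subunit of mTOR complex 2, rose there (0.35, SE 0.07). Pik3r1, Foxo1 and Rictor in Dpp4+ and Pik3r1 in Cd142+ cells held with each library left out. Akt2 fell in Dpp4+ (−0.26, SE 0.08) and Cd142+ cells (−0.30, SE 0.09), both lost without any 1 of the 3D or 14D cold libraries (adjusted p up to 0.207 and 0.234). Pik3cb passed in the 3 fibroblast classes at levels of at most 2.93 CPM, and each of those calls was lost without 4 or more of the libraries in turn (adjusted p up to 0.246). Over all alternatives with a value, Akt2 held in 8 of 15 in Dpp4+ and 6 of 15 in Cd142+ cells. Pik3cb held in 7 of 15, 8 of 14 and 4 of 13 in Dpp4+, Icam1+ and Cd142+ cells.

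In the growth hormone axis, whose receptor drives Igf1 transcription in liver, Ghr fell in Cd142+ fibroblasts, from 127, 122 and 137 CPM in young to 109, 98.2 and 92.9 CPM in aged libraries (−0.36, SE 0.09, adjusted p = 0.0269). It was lost without the young or the aged 14D cold library (adjusted p up to 0.163). Over all 15 alternatives the Ghr call held in 9. Cish, an inhibitor that STAT5 induces, fell in the same class, from 40.2, 44.8 and 41.0 CPM to 29.0, 32.5 and 32.0 CPM (−0.43, SE 0.09, adjusted p = 0.0129), and held with each library left out but not with DESeq2 (adjusted p = 0.232). Neither in Dpp4+ nor in Icam1+ cells did any of the 6 genes of this list pass. Over the whole set of 45, 16 genes in each of those classes had an unadjusted p under 0.05 in edgeR's test, and DESeq2 called 9 and 4. Of all genes tested, 4049 of 13238 in Dpp4+ and 3489 of 12965 in Icam1+ cells had such an unadjusted p.

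Among proteases and their inhibitors, Htra1, a protease that cuts binding proteins, fell in Dpp4+ (−0.34, SE 0.06, adjusted p = 0.00270) and Icam1+ cells (−0.56, SE 0.08, adjusted p = 0.00541), and both held with each library left out. The stanniocalcins, which block PAPP-A, were called in some classes only. Stc2 fell in Dpp4+ cells (−1.12, SE 0.14, from 5.59 to 8.96 CPM in young to 1.99 to 4.35 CPM in aged) but did not pass in Icam1+ (−0.27, adjusted p = 0.69) or Cd142+ cells (−0.04, adjusted p = 0.96). Stc1 fell in Cd142+ (−2.08, SE 0.28) and endothelial cells (−0.77, SE 0.11, adjusted p = 0.00619, lost with DESeq2 at 0.0756). Pappa2 in Dpp4+ cells passed at no more than 1.21 CPM and Insrr, an orphan receptor of the insulin family, at no more than 2.56 CPM. Both were lost without the young or the aged 3D cold library, and Insrr also without young TN (adjusted p up to 0.0679 and 0.0741). Over all 14 alternatives with a value, Pappa2 held in 11, with log2 fold changes from 0.24 to 2.67, and Insrr in 9. By temperature, Insrr, Irs2 and Stc2 passed in Dpp4+ fibroblasts, 3 of the 39 tested (7.69%, beside 7.61% of all genes). Of 33 tested in endothelial cells 1 passed (3.03%, beside 1.36% of all genes). That gene was Stc1 (log2 fold changes 0.99 at 3D cold and 0.27 at 14D cold, adjusted p = 0.00453). None of the 45 passed by temperature in Icam1+, Cd142+, SMC/pericyte or immune cells in edgeR's quasi-likelihood test, with 12, 5, 2 and 3 at an unadjusted p under 0.05 and 3, 0, 0 and 0 called by DESeq2. Over all genes the unadjusted counts in those classes were 2831 of 12965, 1760 of 11612, 626 of 6588 and 226 of 4432.

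**Figure D4:**
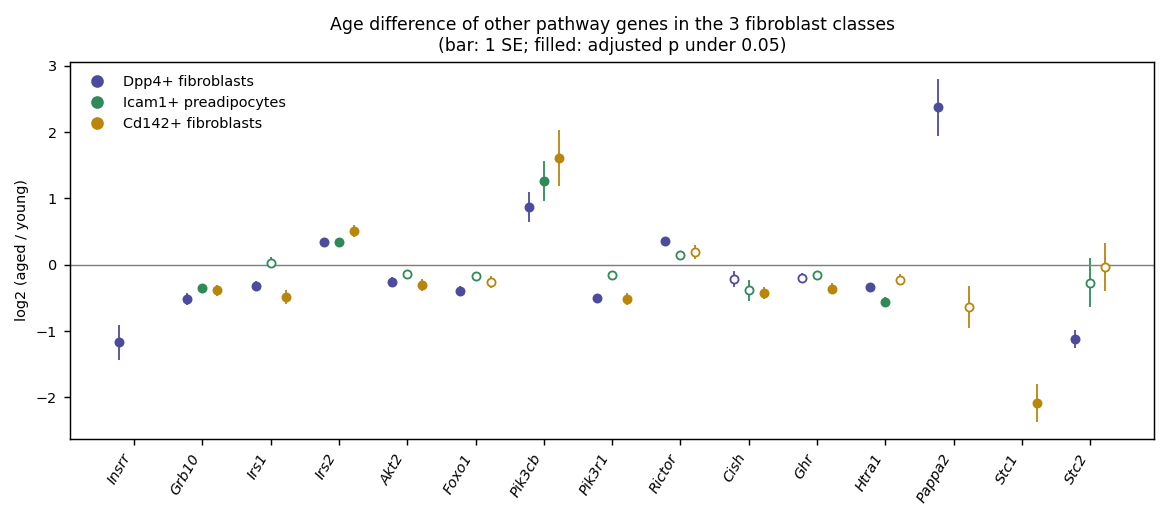
Age difference as log2 (aged / young) of other pathway genes, each past the threshold in at least 1 fibroblast class. Colours are the 3 classes, bars are 1 SE and filled points passed. Irs2 lies above 0 and Grb10 below 0 in all 3 classes.

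The genes whose level most resembled that of Igf1 were found over the 36 sums of 6 classes and 6 libraries, which share libraries and depth, among 6091 genes with a mean of at least 20 CPM. For Igf1 these included Glb1 (Pearson r = 0.84 on log2(CPM + 1)), C4b (0.82), Sec61g (0.80) and Mmp19 (0.78). Glb1 encodes a lysosomal hydrolase and C4b a complement component. For the receptors they were Midn (0.85) and Tgfb2 (0.85) with Igf1r, and Ppp2r3a (0.92) and Fbxw8 (0.90) with Igf2r. For the binding proteins they were Pam (0.88) and Lamb2 (0.87) with Igfbp3, Cadm3 (0.96) and Adamtsl4 (0.94) with Igfbp4, Ebf2 (0.95) and Vasn (0.95) with Igfbp5, Mfap5 (0.99) and Gfpt2 (0.99) with Igfbp6, and Cd81 (0.97) and Cav1 (0.95) with Igfbp7. Igfbp2, near 0 throughout, had no partner above 0.54 (Gid4, then Cops4 at 0.53).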

How the data were processed

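Single-cell RNA was measured in 6 libraries. The deposited values are UMI counts per gene and barcode, which the authors made with Cell Ranger (3.1.0 in the file header) on mm10; no normalization was in them. Barcodes with over 200 genes, and log10 UMIs, log10 genes and mitochondrial share within 3 median absolute deviations of their library's median, were kept. A cell joined a lineage when its markers reached a set share of its UMIs. The shares were 100 per 10000 for fibroblasts, 20 for endothelial, mural and Schwann cells, and 10 for immune and lymphatic cells. A fibroblast class also needed a lead of 0.5 log2 units and 3 of its markers detected. Cells of more than 1 lineage were left out, and no doublet caller was run. These cuts were chosen after seeing the data. UMIs were summed per library and class and tested with edgeR 4.0.16 in R 4.3.3 (quasi-likelihood F test, TMM, filterByExpr, Benjamini-Hochberg, threshold 0.05), with temperature or age as covariate (2 residual degrees of freedom). The study tested cells, while here libraries are the units tested. The SE is the fold change over the square root of F. Classes needed 20 cells in every library. Libraries of different age or housing are different mice, but each combination is 1 library. In the age and temperature tests, p-values rest on how far the age difference varied between temperatures. Each gene's own estimate of that variation is drawn by edgeR towards the estimates of all genes tested. The precision of a p-value thus comes in part from other genes and not from the 2 residual degrees of freedom alone. They do not measure the spread between libraries or mice of 1 condition. Named genes were the 9 members, other pathway genes past the age threshold in a fibroblast class, and the 5 (Igf1) or 2 (others) genes of highest correlation. Some genes that met these rules are not reported here, but stay in the counts. The members and lists were chosen with earlier results of these data known. Alternatives were DESeq2 1.42.0, RLE factors, no filter, no covariate, each library left out, equal cells thinned to 2000 UMIs, a fixed cell filter (1000 to 7000 genes, 10% mitochondrial), Leiden clusters (leidenalg 0.10.2, resolution 0.5) and mixed cells kept. The age fit was tested on simulated counts in the fibroblast classes, endothelial cells and SMC/pericytes. The other fits were not. Positions come from GENCODE vM21 on GRCm38, and promoters from RefSeq.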

Additional observations from a re-analysis of the deposited data

Results flagged for a closer look

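Lymphatic endothelial cells, 54 cells in all and too few to be tested, held 2 of the genes above their highest level in any tested class. Igf1r stood at 218.6 CPM over all libraries (79 UMIs), against 126 CPM in the highest tested class. Igfbp4 stood at 2332 CPM (843 UMIs), against 2019 CPM in Dpp4+ fibroblasts. Per library the Igfbp4 level ran from 1641 to 3277 CPM on 4 to 16 cells, overlapping the Dpp4+ range, so neither order was tested.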

How the results depend on the processing

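None of the 29 called age and temperature differences of the 9 genes, and none of the called age differences of the other pathway genes, changed sign under the alternatives run. The age calls of Igf1 and Igfbp5 in Dpp4+ and of Igf1 in Cd142+ fibroblasts held in 15 of 15. The counts of called genes moved more. By age, against 5, 6, 3, 1, 0, 0 and 1 called of the 9 genes in Dpp4+, Icam1+, Cd142+, endothelial, SMC/pericyte, immune and all kept cells, a fit with no temperature term called 2, 0 and 1 in the fibroblast classes and 0 in endothelial and all kept cells. DESeq2 called 0 in endothelial and 4 in all kept cells, no low-count filter 4 in endothelial, 1 in SMC/pericyte and 2 in all kept cells, Leiden clusters 2 in endothelial cells and 2 in SMC/pericytes, and the fixed cell filter 1 in SMC/pericytes. Leaving out 1 library gave 3 to 5 in Icam1+, 0 to 4 in endothelial, 0 to 1 in SMC/pericyte and 0 to 1 in immune cells. By temperature, against 2, 4, 4, 1, 1, 0 and 1, a fit with no age term called 0 in the 3 fibroblast classes and in endothelial, SMC/pericyte and all kept cells. DESeq2 called 0 in endothelial cells and SMC/pericytes and 5 in all kept cells, and no low-count filter 4 in Dpp4+, 4 in endothelial, 3 in SMC/pericyte and 3 in all kept cells. RLE factors called 2 in SMC/pericytes, equal cells 0 in endothelial cells, the fixed cell filter 2 in SMC/pericytes and 3 in all kept cells, and mixed cells kept 3 in endothelial cells and 0 in SMC/pericytes. Leaving out 1 library gave 2 to 5 in Dpp4+, 2 to 7 in Icam1+, 1 to 4 in endothelial, 0 to 3 in SMC/pericyte, 0 to 2 in immune and 0 to 3 in all kept cells. The age by class test of Icam1+ and Cd142+ cells called 1 under Leiden clusters and 0 to 1 with 1 library left out. For the other pathway genes by age, against 12, 5, 9, 1, 0 and 0, no temperature term gave 6, 0, 1 and 0 in Dpp4+, Icam1+, Cd142+ and endothelial cells, and equal cells 7, 3, 4, 0 and 1 from Dpp4+ to SMC/pericytes. DESeq2 gave 3 in Cd142+ and 0 in endothelial cells, no low-count filter 10 in Icam1+, 2 in SMC/pericyte and 1 in immune cells, the fixed cell filter 2 in endothelial cells and 2 in SMC/pericytes, Leiden clusters 4 in endothelial cells and RLE factors 1 in SMC/pericytes. Leaving out 1 library gave 7 to 14, 1 to 8 and 5 to 12 in Dpp4+, Icam1+ and Cd142+ cells, and 0 to 1 in SMC/pericyte and in immune cells. By temperature, against 3, 0, 0, 1, 0 and 0, no low-count filter gave 9, 10, 1, 4 and 2 from Dpp4+ to SMC/pericytes, no age term 0 in Dpp4+ and endothelial cells, and equal cells 1, 3 and 1 in the fibroblast classes. DESeq2 gave 3 in Icam1+ and 0 in endothelial cells, Leiden clusters 2 in each of Icam1+, Cd142+ and endothelial cells, mixed cells kept 3 in endothelial cells and the fixed cell filter 2 in SMC/pericytes. Leaving out 1 library gave 0 to 8, 0 to 6, 0 to 2, 1 to 2, 0 to 2 and 0 to 1 in that order of classes. Calls over all genes moved as well, also with 1 library left out. By age in the 3 fibroblast classes they were 2343 of 13238, 1405 of 12965 and 1164 of 11612. With no temperature term they were 753 of 12941, 229 of 12647 and 312 of 11320. By temperature they were 1008, 410 and 214, and 0, 0 and 1 with no age term. The moved counts of listed genes are therefore not read as particular to those genes. The cause of these moves was not tested. Alternatives on the pathway list and the rule of 4 markers were chosen after seeing the data. Equal cells, Leiden clusters and mixed cells have no value for all kept cells, and the age by class test was run only with Leiden clusters and with libraries left out. Leaving out a library removes its temperature partner from the age comparison. No paired analysis was possible because the labels give no replicate numbers; the temperature term sets young beside aged libraries of 1 temperature. Levels by class moved in 17 cases and stayed in 91, and shares of UMIs moved in 13 and stayed in 41. Under the 2 alternatives run for levels, Igf1 in SMC/pericytes stood at 32.9 and 88.1 CPM. Igfbp6 stood there at 49.1 and 936 CPM, and Igfbp4 in endothelial cells at 102 and 209 CPM. Levels outside fibroblasts therefore depend on how cells were assigned. Depth limits Igfbp2 and the small classes.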

Other observations

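Igf1 in the few immune cells left after CD45 depletion ran from 37.1 to 227 CPM (225 UMIs in 258 cells). The level was 131 CPM in both the young TN and the young 3D cold library, 37.1 CPM in young 14D cold, 41.3 CPM in aged TN, 210 CPM in aged 3D cold and 227 CPM in aged 14D cold. The 8 macrophage markers in the same cells summed to 6882, 6647 and 3084 CPM in the young libraries at TN, 3D cold and 14D cold, and to 3877, 12148.5 and 11739 CPM in the aged ones, with none at 0. The libraries lowest in Igf1 were also the lowest in macrophage markers, and the 2 highest in Igf1 the 2 highest in them; the share of macrophages among immune cells was not tested. The age difference in immune Igf1 was 0.48 (SE 0.65, adjusted p = 0.88 in edgeR's quasi-likelihood test), and without the young TN library Igf1 was called higher in aged immune cells.

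Igf1 in lymphatic endothelial cells stood at 77.6 to 466 CPM (70 UMIs), with 11 of 54 cells holding a UMI at 2000 UMIs per cell (20.4%, 95% exact binomial interval 10.6% to 33.5%, counting error only). Schwann cells held Igf1 at 0 to 16.2 CPM and Igfbp7 at 654 to 2753 CPM.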
